A study of Mus musculus with 12 samples.

Results

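The genes examined here encode the proteins of the cytosolic ribosome. They were chosen by symbol: every Rpl, Rps, Rplp and Rpsa gene in the count tables, without S6 kinase genes, symbols ending in -ps and genes with fewer than 10 counts summed over the 12 libraries. Of 89 matching symbols, Rps12l1 (0 counts), Rpl10l (0 counts) and Rpl39l (6 counts) fell under that minimum, which left 86 of the 48576 listed genes. These were 51 genes of the large 60S subunit and 35 of the small 40S subunit. In the GENCODE vM21 annotation of GRCm38, 82 are protein coding and 4 are pseudogene models (Rpl6l, Rps3a2, Rps3a3 and Rps4l). The filter on low counts removed 1 member, Rpl6l (21 counts in all), and 85 were tested.

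The libraries came from total RNA of mouse livers that the labels describe as overexpressing either YAP or MYC. The YAP livers carried Col-TRE-YAPS127A, a doxycycline-responsive transgene for YAP with a serine mutation that Hippo kinases can no longer use to inhibit it, together with Rosa26-LSL-rtTA. AAV-TBG-Cre, in which the hepatocyte-specific TBG promoter drives Cre, was given to these mice at 8 to 10 weeks of age. Doxycycline then induced the transgene over 2 weeks in 2 livers and over 4 weeks in 3 livers. Livers of the same genotype without induction were the 2 YAP controls. The MYC livers carried LAP-tTA, whose promoter is active in liver, and TRE-MYC. Doxycycline was withdrawn from their mothers at about embryonic day 8, which lets the transgene be expressed, and 3 livers were collected 4 weeks after birth. The 2 MYC control livers had the LAP-tTA driver without TRE-MYC, on the same doxycycline schedule. The labels call the cells hepatocytes although RNA was taken from whole liver. Hepatocyte markers dominated every library (summed level of 9 markers between 33558 and 121011 CPM, counts scaled to a common library size). In bulk RNA of this kind, fewer cells of a type and less RNA per cell cannot be told apart.

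A ribosome is built from ribosomal RNA and about equal numbers of each ribosomal protein, and cells coordinate the output of these genes with growth. MYC is a known activator of ribosome production, acting on RNA polymerase I, on processing factors and on ribosomal protein genes. The mRNAs of ribosomal proteins typically begin with an unbroken run of C and T, the terminal oligopyrimidine motif, through which the kinase mTORC1 and the protein Larp1 control their translation. That control acts on translation and need not show in RNA levels.

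Start regions of 6 members on which the results turn follow, with 60 bases before and 25 from the RefSeq transcript start (GRCm38.p6). Rps12, Rps7 and Rps26 were among the members called higher with MYC. Rpl36a and Rpl36al are a gene and its copy that moved apart, and Rpl7l1 is a paralog called lower with YAP. Capitals mark the longest run of C or T that touches the 15 bases on either side of the start, and the first of them where several are equally long.
Rps12, chr10:23787185-23787269, minus strand: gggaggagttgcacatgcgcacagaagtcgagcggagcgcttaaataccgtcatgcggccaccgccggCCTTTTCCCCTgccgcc
Rps7, chr12:28635929-28636013, minus strand: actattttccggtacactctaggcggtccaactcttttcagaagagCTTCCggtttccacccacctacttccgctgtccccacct
Rps26, chr10:128626482-128626566, minus strand: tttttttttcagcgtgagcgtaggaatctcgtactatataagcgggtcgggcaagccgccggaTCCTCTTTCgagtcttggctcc
Rpl36a, chrX:134585594-134585678, plus strand: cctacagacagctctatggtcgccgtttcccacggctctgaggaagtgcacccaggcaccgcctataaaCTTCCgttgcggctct
Rpl36al, chr12:69184043-69184127, minus strand: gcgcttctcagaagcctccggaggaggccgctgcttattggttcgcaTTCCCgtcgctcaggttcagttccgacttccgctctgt
Rpl7l1, chr17:46782632-46782716, minus strand: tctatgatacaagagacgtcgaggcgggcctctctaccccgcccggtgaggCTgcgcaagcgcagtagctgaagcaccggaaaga
The marked run is 11 bases long in Rps12, 9 in Rps26, 5 in each of Rps7, Rpl36a and Rpl36al, and 2 in Rpl7l1. In start regions of Rps27l and Rpl35a, also called lower with YAP, such runs reached 9 and 13 bases. Annotated starts can lie several bases from the true first base, so a run beside the start is a description of the sequence only.

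RefSeq promoter windows (300 bases, 250 before the start) were available for 62 members, in 74 windows, and were set beside all 32817 windows of that table. A run of at least 6 C or T touching the start region was found in 59.5% of the members' windows and in 37.5% of all windows. It was found in 70% of 20 windows of members called higher with MYC, in 55.6% of 54 windows of the other tested members, and in 28.6% of 7 windows of paralogs. The E-box CACGTG, which MYC and its partner MAX can bind, was present in 10.8% of the members' windows and in 7.15% of all windows. Its share was 10% in members called higher with MYC and 11.1% in the other tested members. The motif GGAATG, known from TEAD factors through which YAP acts, was present in 9.46% of the members' windows and 14.7% of all windows, both strands being searched. CCGGAAG, a site type of ETS-family factors, was present in 35.1% and 8.86% of these windows. The 3 motifs do not contain one another.

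The 12 libraries held between 12511170 and 17690798 counts. Several library features moved with the groups. Mitochondrially encoded genes took 7.67 to 13.9% of counts in the 5 induced YAP libraries, against 19.3 and 19.6% in YAP controls. In the MYC model they took 15.1 to 20.8% with MYC, against 15 and 15.8% in MYC controls. By Xist and Y-linked genes, 2-week YAP replicate 2 and the 3 libraries of 4 weeks had a female pattern and the others a male pattern, so that 4 weeks of YAP and sex cannot be told apart. Counts under the mouse symbols did not show the transgenes plainly. Yap1 was at 80 and 87.3 CPM after 2 weeks of YAP and 85.7, 65.5 and 68.9 CPM after 4 weeks, against 86.4 and 81.1 CPM in YAP controls (adjusted p = 1 and 0.372). Myc was at 31.4, 23.2 and 22.2 CPM with MYC, against 15.5 and 6.7 CPM in MYC controls (adjusted p = 0.242). It was at 104 and 107 CPM after 2 weeks of YAP and 117, 64.7 and 111 CPM after 4 weeks, against 53.2 and 8.16 CPM in YAP controls (adjusted p = 0.0872 and 0.0792). The species of either transgene is not stated in the labels, so these counts do not check the labels, and the comparisons below rest on the labels alone. Scaling factors (trimmed mean of M values, TMM) were 0.743 and 0.742 in YAP controls and 0.977 to 1.346 in induced YAP libraries. They were 0.794 and 0.835 in MYC controls and 0.950, 1.141 and 1.164 with MYC. TMM holds the typical gene level, so each result on members below is relative to that.

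As a share of the RNA counted, the ribosomal protein genes took more in every induced library than in any control. Their share was 1.04 and 1.43% after 2 weeks of YAP and 1.24, 1.18 and 1.38% after 4 weeks, against 0.757 and 0.729% in YAP controls. With MYC it was 1.19, 1.44 and 1.38%, against 0.757 and 0.79% in MYC controls. The mean share was 1.66 times that of controls at 2 weeks, 1.7 times at 4 weeks and 1.73 times with MYC. Without mitochondrially encoded genes in the total, these ratios were 1.52, 1.52 and 1.77.

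On the TMM scale, which sets the members against the typical gene, most of the gap in the YAP model was no longer seen. Summed over the members, the level was 10686 and 12183 CPM (TMM-scaled) after 2 weeks of YAP and 11091, 9427 and 10284 CPM after 4 weeks, against 10186 and 9814 CPM in YAP controls. The 4-week and control libraries overlapped. With MYC the summed level was 12556, 12614 and 11893 CPM, against 9536 and 9455 CPM in MYC controls, and every MYC library lay above both controls. The ratio of means was 1.14 at 2 weeks, 1.03 at 4 weeks and 1.3 with MYC. At 2 weeks of YAP and with MYC the members' sum lay above controls in every library on each of these scales. At 4 weeks of YAP this held for the shares and not on the TMM scale.

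**Figure D1:**
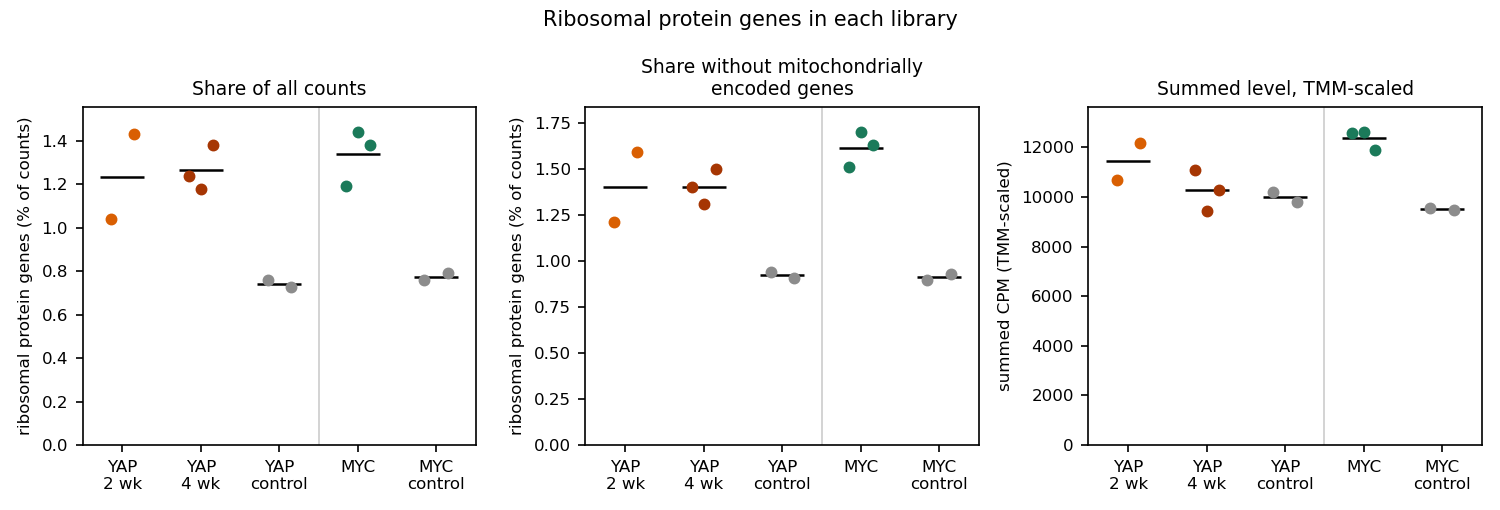
The ribosomal protein genes in each library: their share of all counts, their share without mitochondrially encoded genes (both in percent) and their summed TMM-scaled level in CPM. Points are libraries and lines are group means; induced shares lie between 1.04 and 1.44%, control shares between 0.729 and 0.79%, while the summed levels of 4-week YAP livers and their controls overlap.

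In livers with MYC, the comparison with LAP-tTA controls asks what MYC adds in growing liver. 21 of 85 tested members were called higher at an adjusted p under 0.05 (edgeR's quasi-likelihood test with Benjamini-Hochberg adjustment over all 17964 genes), 0 were called lower and 64 were not called. Over all genes tested, 9.76% were called higher and 8.54% lower. The 21 were 11 of the 60S and 10 of the 40S genes. The members' median log2 fold change was 0.38, with quartiles of 0.19 and 0.59, against a median of 0.02 over all genes. Every MYC library lay above every control library in 61 members and below in 0, against 26.8% of all genes with every library above and 26.2% with every library below. The medians of both subunits were close, 0.36 for the 60S and 0.48 for the 40S.

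Rps12, a 40S subunit protein (ENSMUSG00000061983.7, chromosome 10, 23785183 to 23787275), changed most among the called members. Its level was 344, 367 and 357 CPM with MYC, against 191 and 159 CPM in controls. The 3 MYC libraries lay close together and far above both controls, a log2 fold change of 1.03 ± 0.18 (SE; adjusted p = 0.00341).

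Rpl5 binds 5S ribosomal RNA together with Rpl11 and, when assembly fails, the p53 inhibitor Mdm2. It was at 400, 400 and 305 CPM with MYC, against 228 and 177 CPM in controls (log2 fold change 0.86 ± 0.19, adjusted p = 0.0124). Rpl11 was at 216, 203 and 175 CPM, against 162 and 181 CPM, and the libraries overlapped (0.21 ± 0.15, adjusted p = 0.378). Of this pair, then, 1 gene passed the test.

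Rps7, which also binds Mdm2, was at 235, 232 and 163 CPM with MYC, against 112 and 118 CPM in controls (0.87 ± 0.19, adjusted p = 0.0112). Rps26, a 40S protein at the exit of the mRNA channel, was at 203, 180 and 134 CPM, against 104 and 81.7 CPM (0.89 ± 0.20, adjusted p = 0.0108). In both genes MYC replicate 3 was the lowest of the 3 and still above both controls. Rpl13a reached a log2 fold change of 0.93 ± 0.29 (adjusted p = 0.0482) from low levels, 8.69, 14.4 and 11 CPM with MYC against 6.09 and 5.84 CPM in controls. Part of its exon sequence (29.4%) is shared with an annotated read-through gene, so its level is uncertain.

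Rpl39, which lines the tunnel through which the new peptide leaves, was at 69.5, 74.7 and 57.9 CPM with MYC, against 41.3 and 33 CPM in controls (0.86 ± 0.20, adjusted p = 0.0137). Rpl38, known in mice for its part in translation of Hox mRNAs, was at 167, 165 and 120 CPM, against 105 and 80.8 CPM (0.70 ± 0.19, adjusted p = 0.0275). Both showed groups that did not overlap. The other called members were Rpl7, Rpl10a, Rpl12, Rpl14, Rpl22, Rpl36a, Rplp1, Rps10, Rps15a, Rps20, Rps23, Rps24, Rps28 and Rps29, with log2 fold changes between 0.52 and 0.81.

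Proteins of 1 structural element did not all pass together. In the P stalk, which recruits elongation factors, Rplp1 rose (0.71 ± 0.18, adjusted p = 0.0219). Rplp0 was at 364, 425 and 545 CPM with MYC, against 296 and 350 CPM in controls, and Rplp2 at 173, 188 and 171 CPM, against 140 and 111 CPM. Both lay above controls in every MYC library without passing the test (adjusted p = 0.345 for Rplp0 and 0.14 for Rplp2). Rps6, the substrate of S6 kinase, had a log2 fold change of 0.33 ± 0.21 (adjusted p = 0.318), and Rps19, mutated in human Diamond-Blackfan anaemia, of 0.44 ± 0.18 (adjusted p = 0.115). At an unadjusted p under 0.05, 41 of 85 members differed, against 32.9% of all genes.

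The count of 21 rests on few control livers. Leaving out either MYC control leaves 1 library in that group, and most of the calls were lost there. Without MYC replicate 2 the count was 8. The share of all genes called in these fits is not given here, so such drops show nothing particular to the members. The members' median stayed between 0.36 and 0.42 when any library of this comparison was left out. Rps12, Rpl5 and Rps26 each kept their call in 4 of 5 such fits, the exception being the fit without MYC control replicate 2 (adjusted p = 0.0613, 0.141 and 0.126). Rps7 and Rpl39 kept theirs in 3 of 5, Rpl7, Rpl22, Rpl36a, Rpl38 and Rplp1 in 2 of 5, and Rpl10a and Rpl13a in 1 of 5. That replicate stood apart in 2 members: Rps27 had 439 CPM there, against 96 CPM in MYC control replicate 1, and Rpl30 had 236 against 115 CPM. In all other groups these genes lay between 112 and 165 CPM and between 85.7 and 137 CPM.

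Markers of other cells moved with MYC too. The summed level of 5 neutrophil markers was 546 to 1163 CPM with MYC, against 3.36 and 3.66 CPM in controls, and that of 6 erythroid markers was 267 to 1702 CPM, against 94.8 and 120 CPM. That of 7 Kupffer cell and macrophage markers was 364 to 431 CPM, against 204 and 194 CPM. Hepatocyte markers summed to 33558 to 59587 CPM with MYC, against 121011 and 115224 CPM in controls. Sums of some other markers were lower with MYC. Endothelial markers summed to 221 to 337 CPM, against 462 and 445 CPM, and stellate markers to 231 to 518 CPM, against 584 and 612 CPM. Cholangiocyte markers summed to 3.08 to 8.12 CPM, against 12.4 and 17.5 CPM. Among the Kupffer cell and macrophage markers, Clec4f averaged 71.7 CPM, against 83.3 CPM. The part of all these markers in the rise of the members was not tested.

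**Figure D2:**
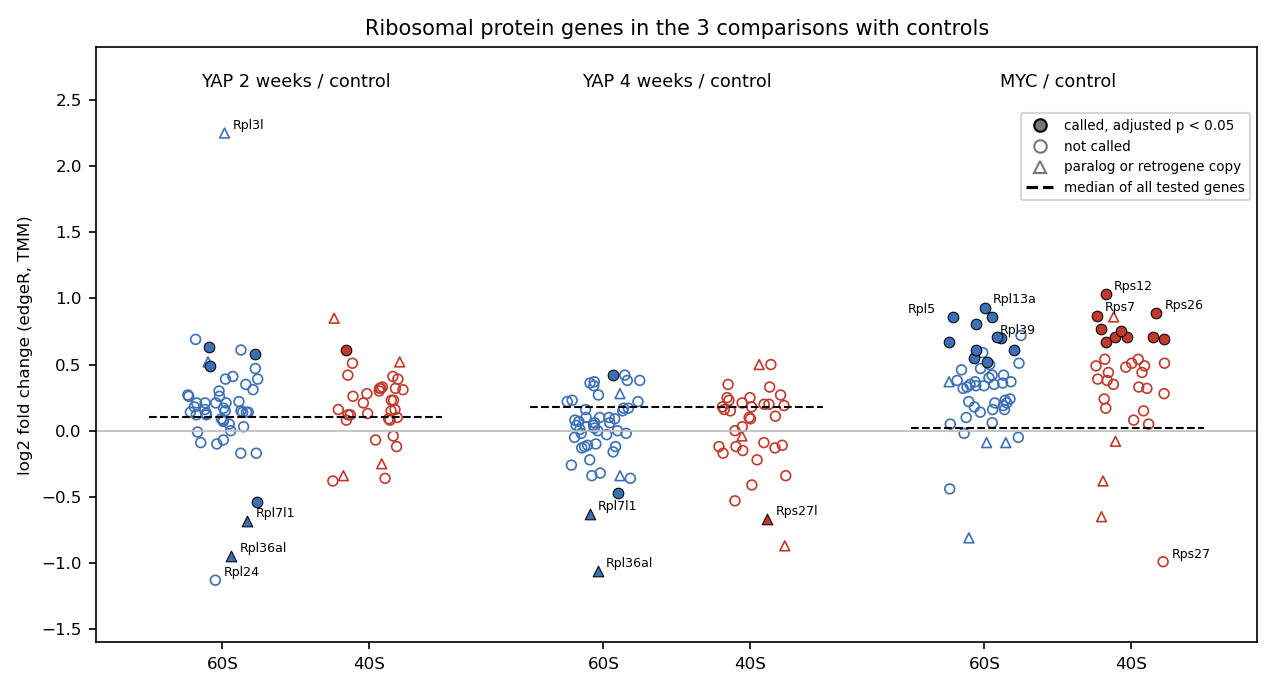
Log2 fold changes (edgeR, TMM-scaled) of the 85 tested members in the 3 comparisons with controls, by subunit; filled symbols passed an adjusted p under 0.05, triangles are paralogs or retrogene copies, and dashed lines are the median of all tested genes. With MYC the cloud lies above that median (members 0.38, all genes 0.02), and with YAP the lowest called symbols at both times are Rpl36al.

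After 2 weeks of YAP, 4 of 85 members were called higher and 3 lower, against 15.1% of all genes called higher and 12.7% lower. Both shares of members lie below those of all genes. The median log2 fold change was 0.16, against 0.10 over all genes. Every 2-week library lay above both controls in 40 members, against 36.5% of all genes. 12 members had an unadjusted p under 0.05, against 40.5% of all genes.

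The 4 members called higher were Rpl13, Rps12, Rpl10a and Rpl21. Rps12 was at 307 and 345 CPM, against 214 and 214 CPM in YAP controls (0.61 ± 0.19, adjusted p = 0.0329). Rpl10a, a protein of the mobile L1 stalk of the 60S subunit (chromosome 17, 28328471 to 28331033), was at 199 and 191 CPM, against 128 and 134 CPM (0.58 ± 0.19, adjusted p = 0.041). Rpl13, a 60S protein, was at 259 and 329 CPM, against 210 and 169 CPM (0.63 ± 0.21, adjusted p = 0.0453). Rpl21, also of the 60S subunit, was at 124 and 130 CPM, against 92.4 and 88.2 CPM (0.49 ± 0.15, adjusted p = 0.0286). None of the 4 overlapped between groups. Rps12, Rpl10a and Rpl21 kept their call in 0 of the 4 fits that left out 1 library, and Rpl13 in 1 of 4. Each such fit leaves 1 library in a group, and the share of all genes called in it is not given here. The log2 fold changes there were 0.53 to 0.70 for Rps12 and 0.54 to 0.61 for Rpl10a. They were 0.45 to 0.81 for Rpl13 and 0.46 to 0.54 for Rpl21. The count called lower was 1 without either control or 2-week replicate 1. Symbols ending in -ps that are named after Rpl21 are listed separately, with counts equal to 9.04% of those of Rpl21.

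After 4 weeks of YAP, 1 member was called higher and 4 lower, against 18.1% of all genes called higher and 15.7% lower. The median log2 fold change of 0.06 was below that of all genes, 0.18. Every 4-week library lay above both controls in 15 members, against 33.5% of all genes, and below them in 14, against 26.4%. 12 members had an unadjusted p under 0.05, against 45% of all genes. All these shares of members were below those of all genes. The member called higher was Rpl21, at 119, 113 and 129 CPM, against 92.4 and 88.2 CPM in YAP controls (0.42 ± 0.13, adjusted p = 0.034). Without either control the count called higher was 0, as it was without 4-week replicate 3. The count called lower was 1 without either control and 2 without 4-week replicate 2. Rps12, at 288, 224 and 264 CPM against 214 and 214 CPM, did not pass at 4 weeks (0.27 ± 0.17, adjusted p = 0.239), though all 3 libraries lay above the controls.

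**Figure D3:**
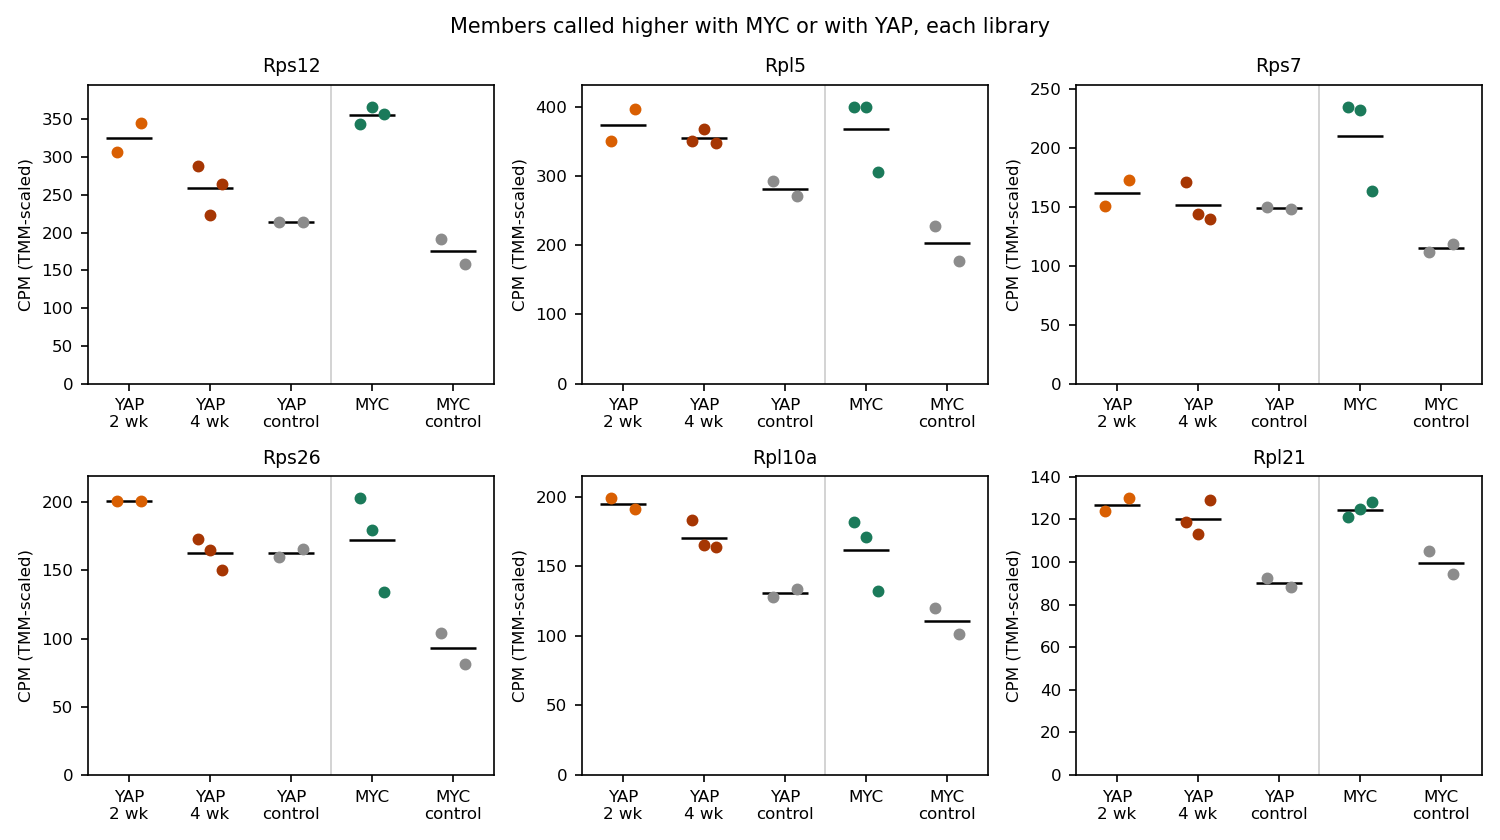
TMM-scaled CPM of 6 members in each library, with group means as lines. Rps12, Rpl5, Rps7 and Rps26 lie higher in all 3 MYC livers than in both MYC controls, and Rpl21 lies higher in all 5 induced YAP livers (113 to 130 CPM) than in YAP controls (88.2 and 92.4 CPM).

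Between 4 and 2 weeks of YAP, 0 members were called in either direction by edgeR and 0 by DESeq2, and 2 had an unadjusted p under 0.05, against 6.94% of all genes. Over all genes 0% were called higher and 0.0612% lower at 4 weeks. The members' median log2 fold change was -0.13, against 0.02 over all genes. It was 0.08 with total counts, against 0.22 over all genes. With totals without mitochondrially encoded genes it was 0.04, against 0.18 over all genes. The members' median thus lay below that of all genes on each scale. On the TMM scale 24 members were lower in every 4-week library than in both 2-week libraries, against 10.1% of all genes.

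Scaled to total counts, the same comparisons read differently. 58 members were called higher at 2 weeks of YAP, against 29.1% of all genes, 68 at 4 weeks, against 43.7%, and 60 with MYC, against 18.3%. This scaling moved the median log2 fold change of all genes to 0.64 at 2 weeks, 0.91 at 4 weeks and 0.43 with MYC. The members' medians on it were 0.71, 0.79 and 0.79. Relative to the median of all genes, the members' median was 0.07 higher at 2 weeks, 0.12 lower at 4 weeks and 0.36 higher with MYC. With TMM these differences were 0.06 higher, 0.12 lower and 0.36 higher. Changing the scaling shifts all genes of a comparison by nearly the same amount. This match was therefore fixed beforehand and is no check on the members.

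Of the 4 members called lower at 1 or both YAP times, 3 were paralogs of other ribosomal protein genes. Rpl36al is an autosomal copy without introns of the X-linked gene Rpl36a (ENSMUSG00000049751.6, chromosome 12, 69182731 to 69184083). It was at 61.1 and 61.2 CPM after 2 weeks and 63.4, 54 and 52.6 CPM after 4 weeks, against 114 and 122 CPM in YAP controls. All 5 induced livers lay far below both controls. Its log2 fold change was -0.95 ± 0.17 at 2 weeks (adjusted p = 0.00238) and -1.06 ± 0.15 at 4 weeks (adjusted p = 0.000559). The call held in each of the 4 fits that left out 1 library at 2 weeks and each of the 5 at 4 weeks. Scaled to total counts the log2 fold changes were smaller, -0.41 at 2 weeks and -0.33 at 4 weeks, and did not pass (adjusted p = 0.0725 and 0.0866).

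With MYC, Rpl36al was at 112, 99.3 and 84.7 CPM, against 109 and 101 CPM in controls, and did not pass (-0.09 ± 0.15, adjusted p = 0.728). The difference between its MYC effect and its 4-week YAP effect passed (log2 difference 0.97 ± 0.22, adjusted p = 0.0229). Rpl36a itself was at 159, 169 and 165 CPM with MYC, against 99.9 and 87.7 CPM in controls (0.81 ± 0.20, adjusted p = 0.018). With YAP it was at 91.4 and 127 CPM at 2 weeks and 103, 80.6 and 109 CPM at 4 weeks, against 109 and 82.9 CPM in YAP controls, and did not pass at either time.

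The balance within the pair, which does not depend on scaling between libraries, was lower in both models. Per 100 Rpl36a counts there were 66.8 and 48.4 Rpl36al counts after 2 weeks of YAP and 61.6, 67 and 48.3 after 4 weeks, against 104 and 147 in YAP controls. With MYC there were 70.2, 58.8 and 51.5, against 109 and 115 in MYC controls. No induced library reached a control value. The copies are nearly identical in protein, and how reads that map to both were counted is not given in the sources used here. A read-through gene also shares 24.5% of the Rpl36al exon sequence.

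Rpl7l1, a paralog of Rpl7 that takes part in 60S assembly, was at 29.5 and 37.7 CPM after 2 weeks and 28.3, 36.7 and 39.2 CPM after 4 weeks, against 55.1 and 52.4 CPM in YAP controls. The log2 fold change was -0.68 ± 0.19 (adjusted p = 0.0217) at 2 weeks and -0.63 ± 0.17 (adjusted p = 0.0157) at 4 weeks. Leaving out either YAP control ended both calls (adjusted p between 0.0647 and 0.103), and the 2-week call was also lost without 2-week replicate 1 (-0.49, adjusted p = 0.159). Scaled to total counts the 2-week value was -0.13 (adjusted p = 0.722). Per 100 Rpl7 counts there were 28.7 and 35.7 Rpl7l1 counts at 2 weeks and 29.8, 41.2 and 43.1 at 4 weeks, against 52.8 and 54 in YAP controls. With MYC there were 46.5, 35.8 and 43.3, against 63 and 64.1 in MYC controls. There Rpl7l1 itself did not pass (-0.09 ± 0.17, adjusted p = 0.77), and Rpl7 rose (0.52 ± 0.13, adjusted p = 0.0216).

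Rps27l, a paralog of Rps27 known as a p53 target, was at 139 and 119 CPM after 2 weeks and 123, 92.7 and 91.9 CPM after 4 weeks, against 163 and 163 CPM in YAP controls. It passed at 4 weeks (-0.67 ± 0.22, adjusted p = 0.0354), not at 2 weeks (-0.34 ± 0.24, adjusted p = 0.318). The 4-week call was lost without either control and without 4-week replicate 2 or 3. Rpl35a, which is no paralog and is mutated in some human Diamond-Blackfan anaemia, was at 51.4 and 49.7 CPM at 2 weeks and 50.6, 54.2 and 54.2 CPM at 4 weeks, against 67.3 and 80 CPM in YAP controls. It passed at both times (-0.54 ± 0.18, adjusted p = 0.0394, and -0.47 ± 0.16, adjusted p = 0.0387). Leaving out any 1 library of either comparison ended these calls. Scaled to total counts, the 4-week changes of Rpl7l1, Rps27l and Rpl35a had the opposite sign (0.12, 0.05 and 0.27 on the log2 scale).

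**Figure D4:**
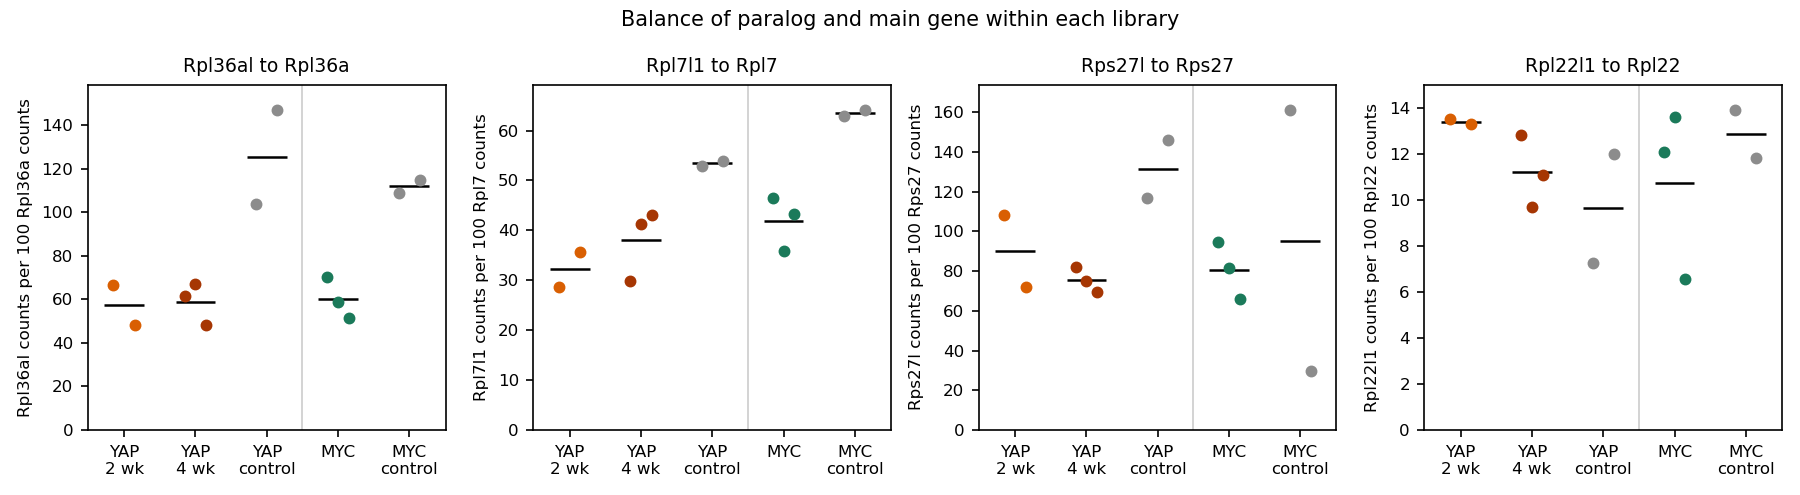
Counts of a paralog per 100 counts of its main gene in each library, with group means as lines. Rpl36al per Rpl36a and Rpl7l1 per Rpl7 lie lower in all induced livers than in their controls in both models, whereas Rps27l per Rps27 in MYC controls is split (161 and 29.6) by the high Rps27 count of replicate 2.

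Of the other paralogs, Rpl22l1 did not pass in any comparison with controls and stood at 6.55 to 13.9 counts per 100 Rpl22 counts over the 12 libraries. Rpl3l, whose expression is known from muscle, had 12 and 11 counts after 2 weeks of YAP, against 2 and 1 in YAP controls, and 2 counts in each 4-week library. The summed level of 10 skeletal muscle markers was 431 and 471 CPM in the 2-week libraries, against 1.06 and 0.742 CPM in YAP controls, and 3.11, 3.09 and 16.6 CPM at 4 weeks. The part of muscle RNA in the Rpl3l counts was not tested. Rpl3l had 9, 4 and 0 counts with MYC, against 1 and 11 in MYC controls, where muscle markers were at 1.37 to 4.12 CPM and at 0.795 and 19.9 CPM. The pseudogene models Rps3a2 and Rps3a3 held at most 20 counts in a library.

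Scaling to the members' own sum asks only about the balance within the ribosomal protein genes. It takes out any change that the members share, so the small number of calls was largely fixed beforehand. The share of all genes called on that scale is not given here. At 2 weeks Rpl36al (-1.14), Rpl7l1 (-0.87), Rpl35a (-0.73), Rps2 (-0.58) and Rps21 (-0.55) were called lower. At 4 weeks the first 4 of these and Rps27l were called lower, and Rps19 was called higher (0.46 ± 0.16, adjusted p = 0.0476). With MYC, Rps12 was called higher (0.65 ± 0.18, adjusted p = 0.0174). Rpl36al (-0.47), Rps27l (-0.76), Rps27 (-1.38) and Rpl30 (-0.82) were called lower, the last 2 being the genes with high counts in MYC control replicate 2.

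The effects of MYC and of 4 weeks of YAP share no samples. Their difference, MYC minus YAP, was above 0 in 75 of 85 members, with a median of 0.39 on the log2 scale against -0.07 over all genes. It passed in 2 members, both higher with MYC, and in 0 in the other direction, against 3.15 and 4.33% of all genes. At an unadjusted p under 0.05 there were 23 members, against 24.5% of all genes. Scaled to total counts the difference was above 0 in 48 members, with a median of 0.07 against -0.39 over all genes. The members' median thus lay 0.46 above that of all genes, against 0.45 with TMM. Scaling shifts all genes alike, so this match is no check on the members. On total counts the difference passed in 0 members (Rpl36al 0.64, adjusted p = 0.0871, and Rps21 0.60, adjusted p = 0.281). The share of all genes that passed on that scale is not given here. With TMM, the member that passed besides Rpl36al was Rps21, a 40S protein, with a log2 difference of 0.93 ± 0.23 (adjusted p = 0.0363). Rps21 was at 98.5, 104 and 112 CPM with MYC, against 67.4 and 79.2 CPM in MYC controls, and at 60.7, 53.2 and 72.6 CPM after 4 weeks of YAP, against 86.3 and 79.3 CPM in YAP controls. Neither of its single comparisons passed (adjusted p = 0.0537 with MYC and 0.0724 with YAP). Both differences lost their call without any 1 of the 4 control libraries. Across the members, Pearson's r between both effects was 0.39, given as a description since genes share libraries and depth.

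Some members differed between the mouse models whether or not a transgene was active, a pattern noticed after the values were seen and described without a test. Rpl29, a 60S protein (ENSMUSG00000048758.14, chromosome 9, 106429454 to 106431568), lay between 42.9 and 54.1 CPM in the 7 libraries of the YAP model and between 4.52 and 6.48 CPM in the 5 of the MYC model. Its medians, 51.6 and 5.03 CPM, differed 10.3-fold. Rps2, at the entrance of the mRNA channel, lay between 53.5 and 110 CPM in the YAP model and between 19.6 and 24 CPM in the MYC model. The retrogene Rps4l lay between 10.7 and 18.2 CPM and between 1.16 and 3.97 CPM. Rpl35, Rpl41, Rpl26 and Rpl19 were lower in every library of the YAP model, with medians 0.652, 0.628, 0.761 and 0.817 times those of the MYC model. No other member of the 86 was split in this way. Over all tested genes, 3.2% were higher and 2.88% lower in every library of the YAP model, so such a split is not particular to the members. The models differ in age, genotype and transgene system, which cannot be told apart here.

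**Figure D5:**
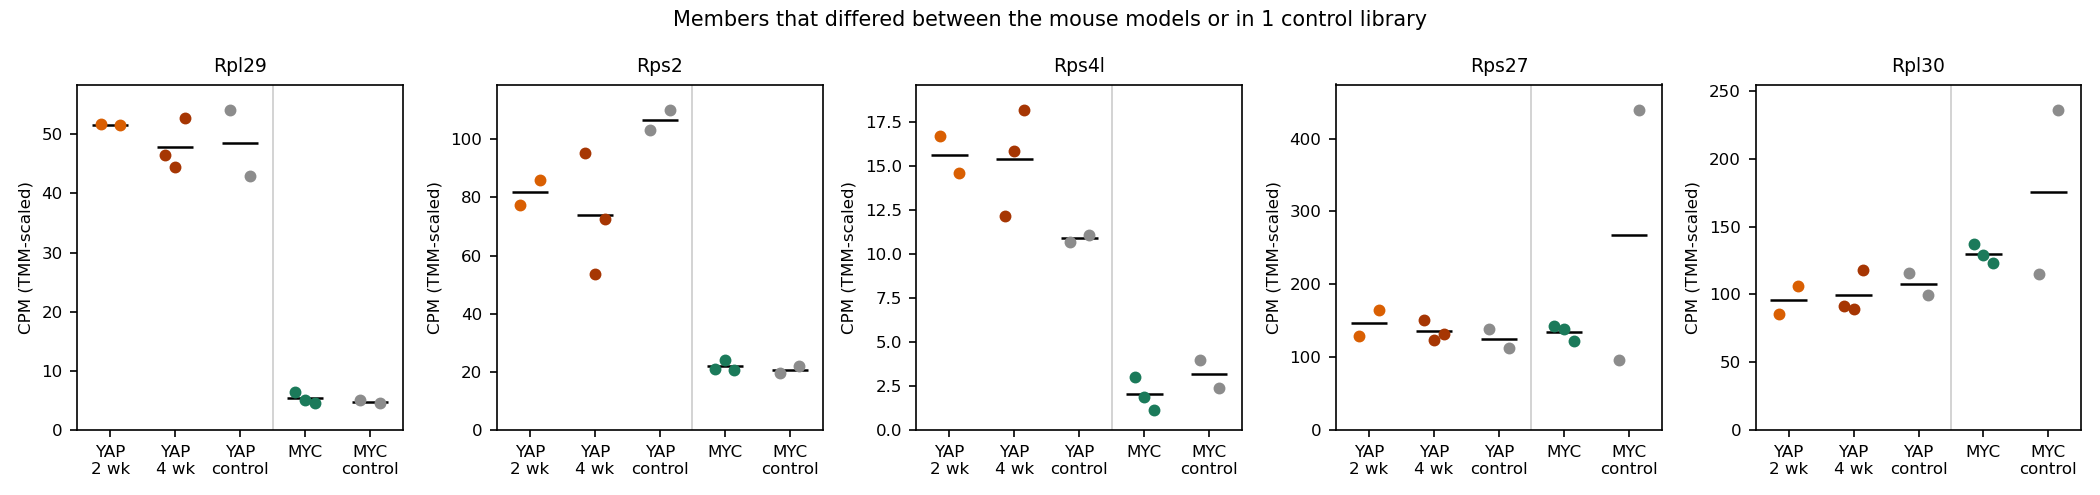
TMM-scaled CPM of 5 members in each library, with group means as lines. Rpl29, Rps2 and Rps4l separate the 7 libraries of the YAP model from the 5 of the MYC model in induced and control livers alike, and Rps27 and Rpl30 are high in MYC control replicate 2 (439 and 236 CPM).

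Levels among members spanned a wide range when set per kilobase of exon. The length used is the union of all annotated exons, such as 383 bp in Rpl36 and 6270 bp in Rps15a. It can exceed the length of the mRNA, so the ranking of genes is rough. The median member had 57.6 CPM per kb over the 12 libraries. The highest were Rpl36 at 636, Rps15 at 314 and Rpl4 at 283 CPM per kb, and the lowest were Rpl6l at 0.136, Rpl3l at 0.199 and Rpl24 at 0.501 CPM per kb. Of the Rpl24 exon sequence, 47% is shared with another annotated gene on the same strand, so its level is uncertain. Ribosomal protein genes have many processed copies in the genome. Symbols ending in -ps held between 0.0111 and 0.0247% of each library's counts, and are listed apart from the members. Those named after Rpl23a had counts equal to 53.5% of the Rpl23a count, and those named after Rpl38 counts equal to 33.2% of the Rpl38 count. Exons of 39 members overlap those of another annotated gene, often a small nucleolar RNA, and 19 have such a gene on the opposite strand. Whether counting used strand is not given in the sources used here.

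The genes that make, load and regulate ribosomes gave the setting in which these changes stood. Rises and falls in these lists are on the TMM scale, relative to the typical gene. Scaling to total counts moved the median of all genes to 0.64 at 2 weeks, 0.91 at 4 weeks and 0.43 with MYC. A fall in a list therefore need not hold on that scale. Values of the lists on other scales or with a library left out are not given here. Of 30 genes of RNA polymerase I and pre-ribosomal RNA processing, 7 rose at 2 weeks of YAP, 8 rose and 4 fell at 4 weeks, and 7 rose with MYC. Over all genes, 15.1% were called higher at 2 weeks, 18.1% higher and 15.7% lower at 4 weeks, and 9.76% higher with MYC. Npm1, a nucleolar chaperone of pre-ribosomes, rose in all 3 (1.04 ± 0.19, 0.83 ± 0.18 and 1.13 ± 0.18; adjusted p = 0.00268, 0.00475 and 0.00226). Dkc1, the pseudouridine synthase of ribosomal RNA, rose with MYC (0.95 ± 0.20, adjusted p = 0.0088), and its MYC effect exceeded its 4-week YAP effect (difference 1.00 ± 0.27, adjusted p = 0.0485). Gar1, of the same enzyme complex, rose with YAP at both times (1.45 ± 0.26 and 1.15 ± 0.25). The list's medians were 0.21, 0.09 and 0.17, against 0.10, 0.18 and 0.02 over all genes.

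The next list held 15 genes of mTORC1 signalling and of the control of terminal oligopyrimidine mRNAs. Relative to the typical gene, 8 fell at each YAP time, 1 fell with MYC and 0 rose. Over all genes, 12.7% were called lower at 2 weeks, 15.7% at 4 weeks and 8.54% with MYC. Larp1, which binds the start of these mRNAs, averaged 176 ± 22.2 CPM at 2 weeks (SD, n = 2) and 161 ± 15.9 CPM at 4 weeks (n = 3), against 283 ± 24.2 CPM in YAP controls (n = 2). Its log2 fold changes were -0.69 ± 0.18 (adjusted p = 0.0154) and -0.81 ± 0.16 (adjusted p = 0.0032). Larp4, a related RNA-binding protein, fell as well (-0.76 ± 0.16 and -1.01 ± 0.14), and Deptor, an inhibitor of mTOR, fell with MYC (-1.30 ± 0.26, adjusted p = 0.007). The list's medians were -0.55, -0.53 and -0.30, against 0.10, 0.18 and 0.02 over all genes.

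Of 30 initiation factor genes, 1 rose and 2 fell at 2 weeks, 1 rose and 9 fell at 4 weeks, and 1 fell with MYC. The share called lower lay below that of all genes at 2 weeks (12.7%) and with MYC (8.54%) and above it at 4 weeks (15.7%), while the share called higher was below that of all genes throughout. Eif6, which keeps the 60S subunit from joining too early, rose at both times of YAP (0.89 ± 0.16 and 0.66 ± 0.15). Eif4g1, the scaffold of the cap-binding complex, fell at both (-0.84 ± 0.21 and -0.98 ± 0.19). Of 14 elongation and termination factor genes, 3 fell at 2 weeks, 4 at 4 weeks and 0 with MYC, and none rose in these comparisons, against the shares of all genes just given. Gspt1, the release factor GTPase, fell most (-0.99 ± 0.14 and -1.05 ± 0.12).

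Of 15 tested genes for chaperones and assembly factors of ribosomal proteins, 2 rose and 1 fell at 2 weeks, 2 rose and 3 fell at 4 weeks, and 1 rose and 2 fell with MYC. These counts are small, and over all genes 15.1, 18.1 and 9.76% were called higher and 12.7, 15.7 and 8.54% lower in the same comparisons. The histone and ribosomal protein chaperone gene Nap1l1 rose in all 3 comparisons (1.99 ± 0.32, 1.55 ± 0.30 and 0.96 ± 0.29), and Bccip, whose product binds Rpl23, fell in all 3 (-0.88 ± 0.17, -0.88 ± 0.16 and -0.68 ± 0.16).

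In the YAP livers, markers of other cells moved beside these results. The summed level of 6 cholangiocyte markers was 564 and 1179 CPM at 2 weeks and 397, 3015 and 3077 CPM at 4 weeks, against 105 and 116 CPM in YAP controls. That of 7 Kupffer cell and macrophage markers was 1188 and 1078 CPM at 2 weeks and 812, 447 and 419 CPM at 4 weeks, against 198 and 180 CPM. That of 5 neutrophil markers was 16.1 and 169 CPM at 2 weeks and 67.5, 42.8 and 124 CPM at 4 weeks, against 4.83 and 2.23 CPM. Hepatocyte markers summed to 93120 and 74171 CPM at 2 weeks and 76654, 39893 and 37984 CPM at 4 weeks, against 103378 and 88130 CPM. Single markers differed within these sums. Spp1 made up most of the cholangiocyte sum (mean 730 CPM at 2 weeks and 1920 CPM at 4 weeks). Krt19 averaged 5.02 and 13.2 CPM, against 7.61 CPM in YAP controls, while the other cholangiocyte markers were higher at both times. At 2 weeks Alb (54632 CPM, against 40326 CPM) and Apoa1 had means above controls and the other hepatocyte markers below. The Kupffer cell marker Clec4f averaged 163 and 52 CPM, against 51.3. The part of these markers in the members' changes was not tested.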

How the data were processed

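Counts per gene symbol of 12 mouse liver libraries were used as the authors deposited them, unnormalised; they are whole numbers in 1 table per library. The submitters' processing notes name GRCm38, featureCounts 1.6.3, HISAT2 2.1.0, DESeq2 1.20.0 and Trim Galore 0.4.1, without saying which made the counts. The annotation, strand setting and treatment of multi-mapping reads are not given in the sources used here, and copies or overlapping genes may share counts. Replicates are separate samples per the labels; chi-square per degree of freedom within groups was 11.2 to 107, above counting error.

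The main test was edgeR's quasi-likelihood test (edgeR 4.0.16, R 4.3.3): 17964 genes passed filterByExpr, TMM scaled them, and 1 quasi-likelihood model with a mean per group was fitted over all 12 libraries (7 residual degrees of freedom, common biological coefficient of variation 31.5%). Tests were two-sided, with Benjamini-Hochberg adjustment over all tested genes and a threshold of 0.05. The code was tested on simulated data. Levels are edgeR's CPM, scaled by TMM. Alternatives were other scalings, no filter, DESeq2 1.42.0, fitting only the groups compared, a replicate block and leaving out each library. Members named are the 5 largest rises and falls per comparison with controls (3 in other contrasts), paralogs with their main genes and a fixed set by role; other lists name up to 3 called genes. Rps2, Rps4l, Rpl29, Rpl30, Rpl24, Rpl35a and others outside that rule were chosen after their values were seen. The members and lists were chosen with earlier results of these data known.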

Additional observations from a re-analysis of the deposited data

Results flagged for a closer look

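In 2 members the effects of MYC and of 4 weeks of YAP differed by the test of that difference. The log2 difference was 0.97 for Rpl36al (adjusted p = 0.0229) and 0.93 for Rps21 (adjusted p = 0.0363), by edgeR's quasi-likelihood test with Benjamini-Hochberg adjustment. Rpl36al kept its call in 5 of 10 fits that left out 1 library, and Rps21 in 3 of 10. Single samples far from their group were not looked for by rule, since no group has more than 3 libraries.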

How the results depend on the processing

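With scaling to total counts, members called higher, members called lower and the members' median log2 fold change were 58, 0 and 0.71 at 2 weeks of YAP, 68, 0 and 0.79 at 4 weeks, and 60, 0 and 0.79 with MYC. With totals that leave out mitochondrially encoded genes they were 42, 1 and 0.58, then 51, 1 and 0.63, then 66, 0 and 0.82. The median of all genes there was 0.51, 0.75 and 0.46, so the members' median lay below it at 4 weeks. The share of all genes called on that scale is not given here, so these counts alone show nothing particular to the members. On these 2 scales, total counts first, the members' median between 4 and 2 weeks became 0.08 and 0.04. The median of all genes was 0.22 and 0.18 there. The difference between the MYC and 4-week YAP effects passed in 0 and 1 members. Its median was 0.07 and 0.26, against -0.39 and -0.20 over all genes. At 4 weeks total counts turned the sign of Rpl10 (0.47), Rpl26 (0.58), Rpl35a (0.27), Rpl7 (0.60), Rpl7l1 (0.12), Rps25 (0.58), Rps26 (0.73), Rps27l (0.05), Rps3a1 (0.61) and Rps6 (0.60), and the totals without mitochondrially encoded genes that of Rpl35a (0.10), Rpl7 (0.44) and Rps26 (0.56). Both scalings hold total RNA fixed and TMM the typical gene, and all genes move with that choice.

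Scaled to the members' sum, 0 members were called higher and 5 lower at 2 weeks, 1 and 4 with MYC, and 0 in the difference between effects. That scaling takes out any change that the members share. Without a filter on low counts, 1 member was higher at 2 weeks and 0 at 4 weeks. DESeq2 called 2 higher at 4 weeks and 8 in the difference between effects. Fitting only the groups compared left 0 higher at 4 weeks. Beyond that, the cause of these moves was not tested. The share of all genes called under these settings is not given here. Samples share only a replicate number (correlations of deviations between -0.0315 and 0.0816); with a replicate block 19 members were higher with MYC and 0 at 4 weeks of YAP. Without mitochondrially encoded genes the mean share was 1.4% at 4 weeks of YAP, 1.61% with MYC, 0.922% in YAP controls and 0.914% in MYC controls. Without paralogs and rarely counted members the shares in YAP and MYC controls were 0.716 and 0.748%.

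Leaving out each library in turn gave 0 to 3 members higher and 1 to 2 lower at 2 weeks (median 0.08 to 0.32), and 0 to 1 higher and 1 to 5 lower at 4 weeks (-0.01 to 0.12). It gave 0 to 23 higher and 0 to 1 lower with MYC (0.36 to 0.42), and 0 between times (-0.22 to -0.04). In the difference between effects it gave 0 to 7 higher and 0 to 1 lower (0.34 to 0.45). A group left with 1 library was taken to vary like the others. The share of all genes called in these fits is not given. The counts of members called in them, here and above, therefore show nothing particular to the members. With 2 livers per control group, counts near the threshold are weakly fixed, while the median with MYC moved least.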
